A study of Mus musculus with 6 samples.

Results

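The genes of sterol and fatty acid synthesis were examined in primary mouse chondrocytes after knockdown of Pkm. The set was a list of 32 genes matched by symbol, out of 55416 rows of the gene table: 18 enzymes of the sterol route, 6 regulators and 8 enzymes of fatty acid synthesis. RNA was sequenced from 3 libraries transfected with a scrambled control siRNA (siNC) and 3 transfected with an siRNA named siPKM2. The study describes its siPkm2 siRNAs as targeting Pkm2. The labels give neonatal mouse knee joints as the source and a culture medium of DMEM/F12 with 10% FBS, and name no other treatment, while the study's methods describe chondrocytes from adult knees. The siNC libraries are labelled wild type, and the siPKM2 libraries carry the genotype labels PKM2, PKM3 and PKM4 knockdown although all 3 titles read siPKM2, so they were taken as 1 group. Nothing in the sources says that the libraries of a group came from separate animals, and the p-values measure the spread between these libraries.

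Cholesterol is built from acetyl-CoA through the mevalonate pathway to farnesyl diphosphate, which is joined to squalene, closed into lanosterol and trimmed to cholesterol in the endoplasmic reticulum. Fatty acids are built from the same acetyl-CoA, which ATP citrate lyase releases from citrate in the cytosol, and are then elongated and desaturated. The transcription factors SREBP2 and SREBP1, encoded by Srebf2 and Srebf1, drive most of the genes of both routes; the escort protein SCAP carries them to the Golgi when sterols are low, and INSIG proteins hold them back when sterols are plentiful. Pyruvate kinase, the product of Pkm, makes the pyruvate from which mitochondrial citrate is formed.

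Total estimated counts per library lay between 22317065 and 25691096, and the lowest estimated count of any of the 32 genes in any library was 69.4, so all of them passed the filter on low counts that left 15269 genes for testing. Pkm itself, whose counts do not separate the PKM1 and PKM2 isoforms, lay at 2335, 2746 and 1674 CPM (counts scaled to the library total) in siNC libraries 1, 2 and 3 and at 336, 541 and 309 CPM in siPKM2 libraries 1, 2 and 3. Library 2 of both groups stood apart. Summed over 10 chondrocyte markers (Col2a1, Acan and others), TPM lay at 4230 in siNC 2 and 5619 in siPKM2 2 and between 15127 and 19323 in the other 4 libraries, and summed over 20 interferon-stimulated genes it lay at 3829 in siNC 2 against 107 and 169 in siNC 1 and 3. All 3 siPKM2 libraries were high for the interferon-stimulated genes, at 2702, 6892 and 2017 TPM. Endothelial markers were below 1 TPM in every library, as were 4 of 8 macrophage markers, among them Adgre1 and Ptprc. Summed over the 8 macrophage markers, TPM lay at 119 in siNC 2 and 88.1 in siPKM2 2 and between 11.8 and 27.0 in the other 4 libraries, with Cd68 at 92.8 in siNC 2 and 53.4 in siPKM2 2. Of the 5 macrophage markers tested, 1, Cd14, was called higher in siPKM2 when the libraries were compared by pair, against 12.3% of all genes. The part of these differences in the results was not tested.

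The groups were compared in edgeR by quasi-likelihood, with p-values adjusted over every tested gene after Benjamini and Hochberg, once by group alone and once with the replicate number as a block. In the second, called the paired fit here, each siPKM2 library is set against the siNC library of the same number, since libraries of the same number deviated from their group means together. By group alone, 0 of the 32 genes passed an adjusted p of 0.05, as did 0.00% of all genes tested, and 0 passed the study's threshold, which adds a fold change over 2; at an unadjusted p under 0.05, 8 were lower and 0 higher in siPKM2, against 9.19% and 8.43% of all genes. DESeq2 by group alone called 2 of the 32, Cyp51 and Elovl6, against 5.38% of all genes. With the pairs, 14 of the 32 passed, against 23.1% of all genes: 12 fell, against 10.8% of all genes, and 2 rose, against 12.3%. At a fold change over 2 only Elovl6 passed, against 5.83% of all genes. Below, "rose" and "fell" refer to the paired fit, and a log2 fold change is siPKM2 over siNC. The paired calls were lost without pair 1 or without pair 3, where no gene of the 15740 or 15545 tested was called. Without pair 1, edgeR gave 12 of the 32 lower and 1 higher at an unadjusted p under 0.05. The shares of all genes were 11.8% and 13.2%. Without pair 3, edgeR gave 16 lower and 1 higher at that threshold, against 10.9% and 12.3%. Without pair 2 all 14 were called again together with Fads2, Insig1, Srebf2 and Insig2, where 39.1% of all genes were called. The 14 kept their sign without any 1 pair.

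**Figure D1:**
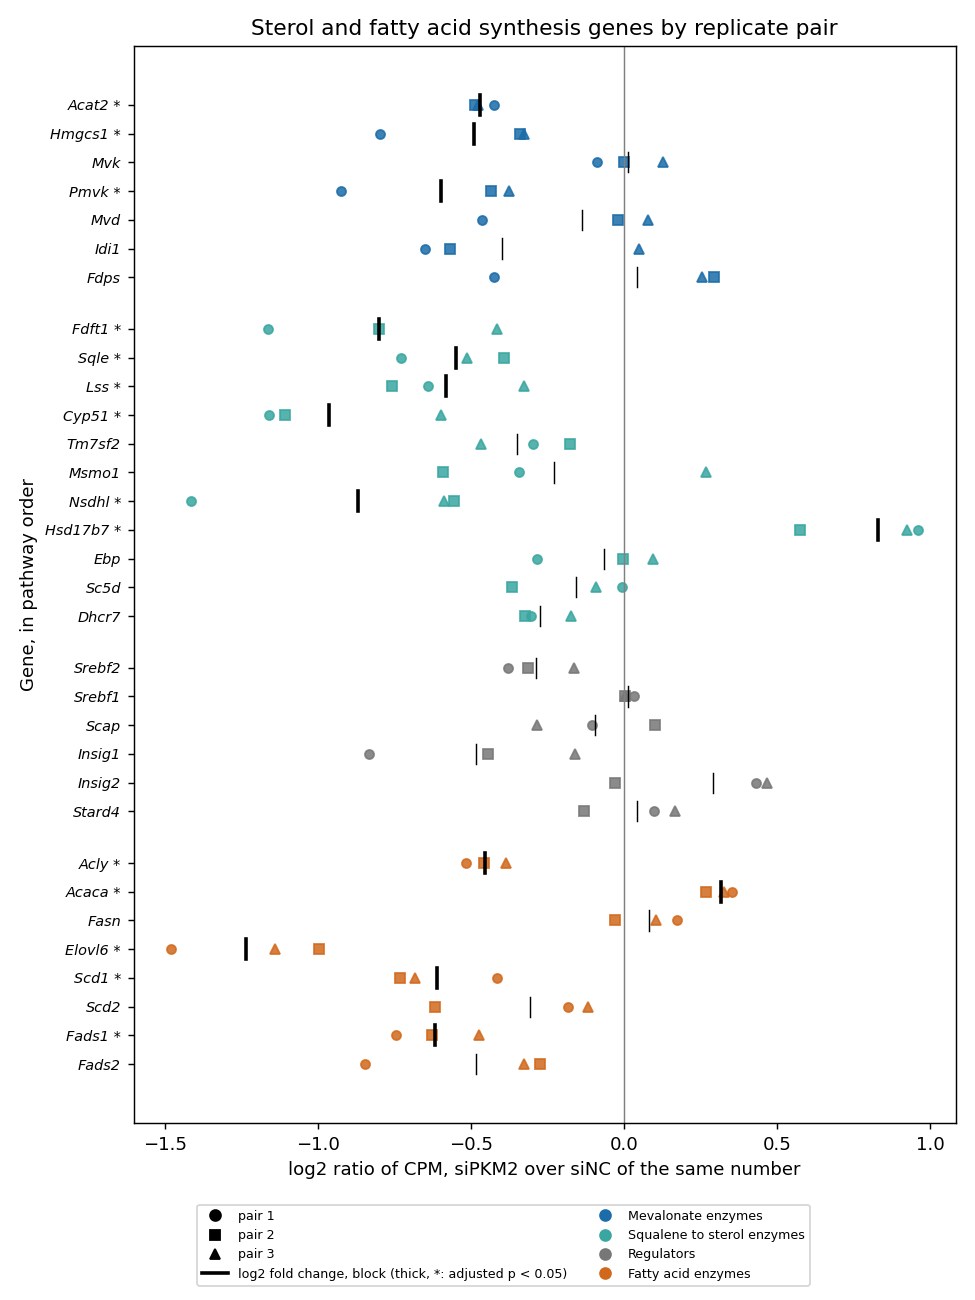
Log2 ratio of CPM of siPKM2 over siNC for each of the 32 genes in pathway order, with circles, squares and triangles for pairs 1, 2 and 3 and a bar for the log2 fold change of the paired fit (thick bar and asterisk: adjusted p under 0.05). Most genes lie left of 0 in all 3 pairs, with Elovl6 and Cyp51 furthest left at -1.23 and -0.96 and Hsd17b7 furthest right at 0.83.

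Most of the sterol enzymes were lower after knockdown. Of the 18 enzymes, 15 had a negative log2 fold change by group alone, with a median of -0.38 beside -0.02 for all genes tested. In the paired fit 8 fell and 1 rose, against 10.8% and 12.3% of all genes. The median log2 ratio was -0.45 in pair 1, -0.38 in pair 2 and -0.25 in pair 3. Summed over the 18 enzymes, TPM, which is scaled to transcript length, was 522, 796 and 486 in siNC libraries 1, 2 and 3 and 373, 622 and 428 in siPKM2 libraries 1, 2 and 3. The sum was lower in siPKM2 within each pair, but the groups overlapped, since siPKM2 2 exceeded siNC 1 and siNC 3. Library 2 was the highest of its group in both groups for 17 of the 18 enzymes, as it was for 26.9% of all genes tested. In library 2, high sterol enzymes came with high interferon-stimulated genes and low chondrocyte markers. Between the groups, lower sterol enzymes came with higher interferon-stimulated genes. Of these 20 genes, 7 rose and 0 fell in the paired fit, against 12.3% and 10.8% of all genes. The part of these genes in the difference was not tested. In bulk RNA, fewer cells of a type and less RNA per cell cannot be told apart.

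**Figure D2:**
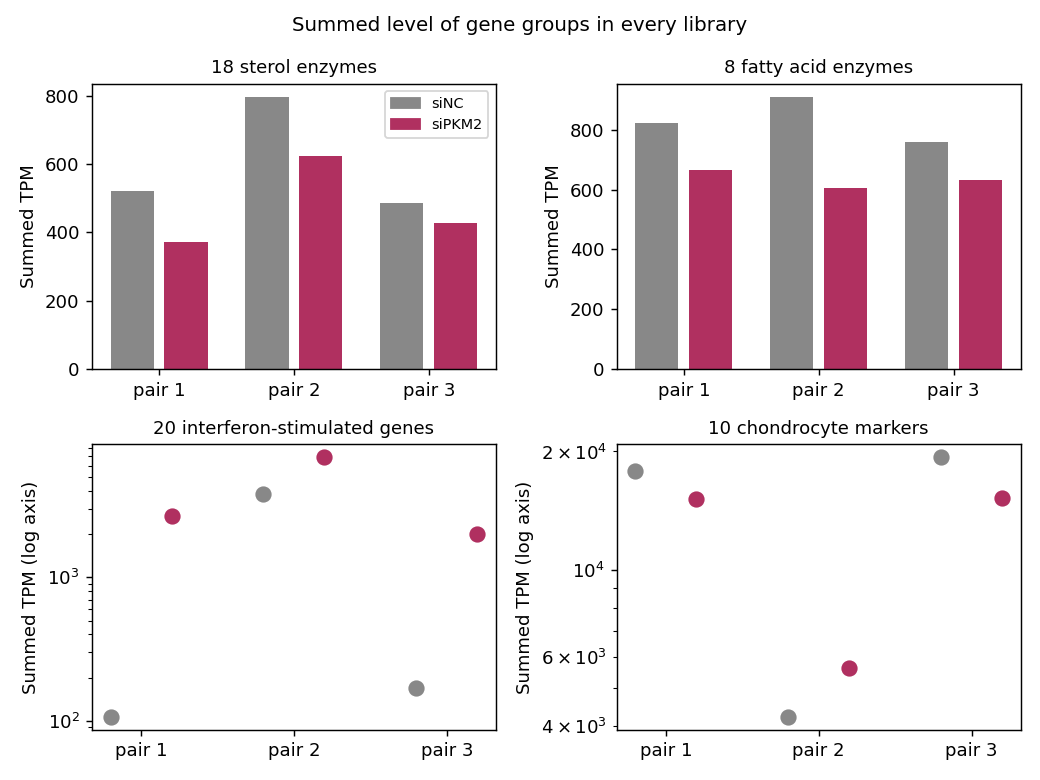
Summed TPM in each library (siNC grey, siPKM2 red) of the 18 sterol enzymes and 8 fatty acid enzymes, as bars from 0, and of the 20 interferon-stimulated genes and 10 chondrocyte markers, as points on a log axis. The sterol and fatty acid sums are lower in siPKM2 in each of the 3 pairs, and library 2 of both groups is high for sterol enzymes and interferon-stimulated genes and low for chondrocyte markers.

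Of the 7 mevalonate enzymes, Acat2, Hmgcs1 and Pmvk fell and none rose, against 10.8% and 12.3% of all genes. Hmgcs1 encodes cytosolic HMG-CoA synthase, an early enzyme of the route. It lay at 154, 157 and 118 CPM in siNC libraries 1, 2 and 3 and at 88.4, 124 and 94.0 CPM in siPKM2 libraries 1, 2 and 3. Only siPKM2 2 reached into the siNC range. The log2 fold change was -0.49 in the paired fit (standard error 0.12, edgeR adjusted p = 0.0414) and by group alone it was also -0.49 (adjusted p = 0.264).

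Acat2, the cytosolic acetoacetyl-CoA thiolase that opens the route, lay at 32.5, 55.8 and 34.4 CPM in siNC and at 24.1, 39.7 and 24.6 CPM in siPKM2, libraries 1, 2 and 3 in each. The drop was nearly the same size in every pair, with log2 ratios of -0.43, -0.49 and -0.48, and the overlap of the groups came from library 2. The paired log2 fold change was -0.47 (standard error 0.08, edgeR adjusted p = 0.0205). Acat2 has a close copy, Acat3, and reads may be split between them. Pmvk, the phosphomevalonate kinase, lay at 18.2, 22.0 and 11.8 CPM in siNC and at 9.37, 16.1 and 8.96 CPM in siPKM2, with siPKM2 2 again above siNC 3 (paired log2 fold change -0.60, standard error 0.15, edgeR adjusted p = 0.0449). The other 4 enzymes did not pass. Mvk (mevalonate kinase), Mvd (mevalonate diphosphate decarboxylase) and Fdps (farnesyl diphosphate synthase) had paired log2 fold changes of 0.01, -0.14 and 0.04, and Idi1, the isopentenyl diphosphate isomerase, had -0.40 (edgeR adjusted p = 0.122) and was lower in pairs 1 and 2 but not in pair 3.

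From squalene onward 5 enzymes fell and 1 rose among 11, against 10.8% and 12.3% of all genes. Of those that fell, 3, Fdft1, Lss and Cyp51, had no siPKM2 library within the siNC range. Cyp51 (ENSMUSG00000001467; GRCm38 chromosome 5, 4081145 to 4104746, minus strand), the lanosterol demethylase, had the largest change among them. It lay at 81.2, 101 and 67.2 CPM in siNC libraries 1, 2 and 3 and at 36.1, 46.9 and 44.2 CPM in siPKM2 libraries 1, 2 and 3, or 83.3 ± 17.2 against 42.4 ± 5.63 CPM (mean ± SD, n = 3). Every siPKM2 library was below the lowest siNC library. The log2 fold change was -0.96 in the paired fit (standard error 0.13, edgeR adjusted p = 0.0142) and -0.97 by group alone (standard error 0.19, edgeR adjusted p = 0.122), and DESeq2 by group alone gave an adjusted p of 0.0069.

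Fdft1, squalene synthase and the first enzyme committed to sterols, lay at 51.1, 73.5 and 43.3 CPM in siNC and at 22.6, 42.0 and 32.4 CPM in siPKM2. The groups were separate, with the largest drop in pair 1 (paired log2 fold change -0.80, standard error 0.16, edgeR adjusted p = 0.0244). By exonic length, 18.3% of Fdft1 is shared with Ctsb on the opposite strand, which had a log2 fold change of 0.37 in the paired fit, and whether the counting used strand is not given in the sources used here. In all, 11 of the 32 genes share exonic bases with another annotated gene; for Cyp51 it is 3.76% with Akap9 on the opposite strand, which had a paired log2 fold change of -0.09, and for Fdps 26.7% with Gm43738 on the same strand. Sqle, squalene epoxidase, lay at 52.5, 79.8 and 53.0 CPM in siNC and at 31.5, 60.6 and 37.0 CPM in siPKM2 (paired log2 fold change -0.55, standard error 0.10, edgeR adjusted p = 0.0205). Only siPKM2 2 reached the siNC range. Lss, lanosterol synthase, lay at 48.7, 74.7 and 44.1 CPM in siNC and at 31.1, 44.0 and 35.1 CPM in siPKM2 (paired log2 fold change -0.58, standard error 0.11, edgeR adjusted p = 0.0234). Its groups did not overlap, but siPKM2 2 lay just under siNC 3.

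Nsdhl, a dehydrogenase that takes part in removing the methyl groups at carbon 4, lay at 18.0, 26.0 and 17.3 CPM in siNC and at 6.43, 17.5 and 11.3 CPM in siPKM2 (paired log2 fold change -0.87, standard error 0.21, edgeR adjusted p = 0.0379). Its groups overlapped by siPKM2 2, which lay just above siNC 3, and the ratio was furthest from 0 in pair 1, at -1.41 beside -0.55 and -0.59. Hsd17b7, the 3-ketosteroid reductase of the same demethylation steps, went the other way. It lay at 17.9, 53.6 and 17.1 CPM in siNC and at 35.2, 80.2 and 32.9 CPM in siPKM2, and it was higher in siPKM2 in each pair, although siNC 2 was above siPKM2 1 and 3. Its log2 fold change was 0.83 in the paired fit (standard error 0.11, edgeR adjusted p = 0.0141) and 0.74 by group alone (standard error 0.57, adjusted p = 0.549). Among the enzymes that did not pass, Tm7sf2 (sterol reductase), Msmo1 (methylsterol monooxygenase), Ebp (sterol isomerase), Sc5d (sterol desaturase) and Dhcr7 (7-dehydrocholesterol reductase) had paired log2 fold changes of -0.35, -0.23, -0.07, -0.16 and -0.27. Sc5d had a lower mean CPM but a higher mean TPM in siPKM2, 46.5 against 45.2 TPM.

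**Figure D3:**
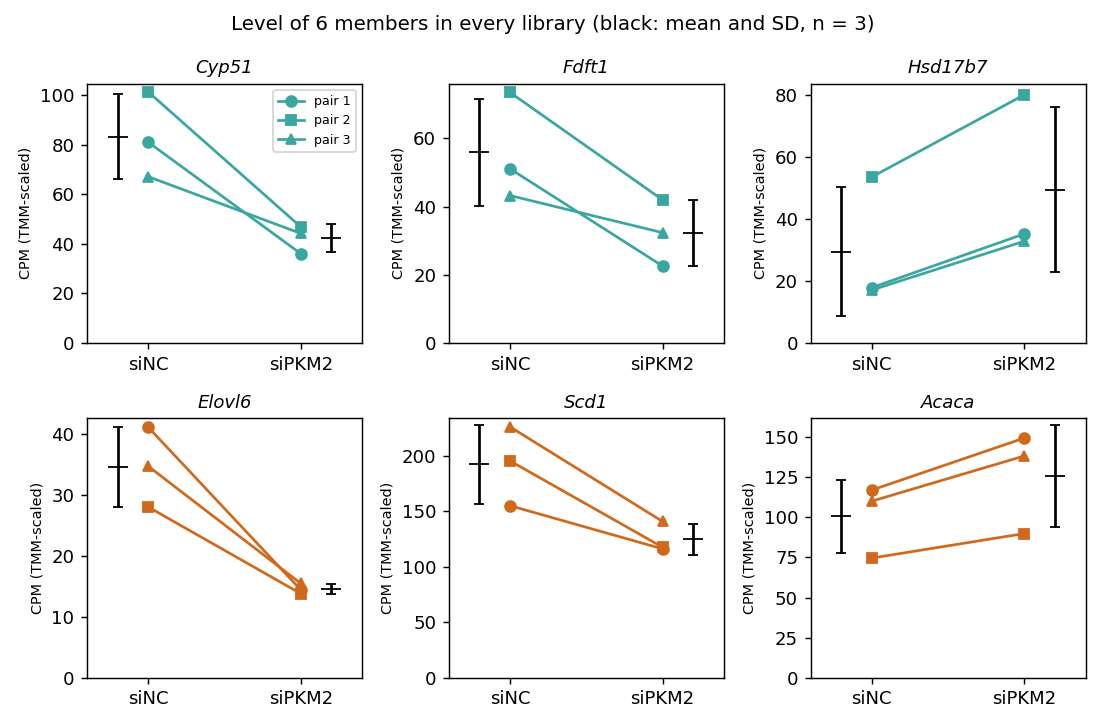
CPM of 6 of the genes in every library, with siNC and siPKM2 libraries of the same number joined by a line and the mean and SD (n = 3) in black beside each group. Cyp51, Fdft1, Elovl6 and Scd1 have every siPKM2 library below every siNC library, whereas Hsd17b7 and Acaca are higher in siPKM2 within each pair with overlapping groups.

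The promoters of these genes were read from RefSeq (GRCm38.p6), 250 bases before to 50 bases after the start of transcription. The table held 25 of the 32 genes; Fdps, Fdft1, Sqle, Stard4, Scd1, Scd2 and Fads1 had no entry. CCAAT on either strand, the box bound by NF-Y, which works beside SREBPs at many sterol genes, occurred in 20 of the 25 (80.0%), beside 43.0% of the promoters of 11108 tested genes. It occurred in 14 of 15 sterol enzymes, 4 of 5 regulators and 2 of 5 fatty acid enzymes. The SREBP site TCACNCCAC on either strand occurred in 1 of the 25, Hmgcs1, beside 1.37% of the tested genes, and the E-box CACGTG occurred in 5, or 20.0%, beside 11.5%. A match is a description of the letters, and their absence says only that they are not in this window. Shown first are the promoters of Hmgcs1, Cyp51 and Lss, which fell, and of Hsd17b7, which rose, with each match in capitals (ATTGG is CCAAT read on the opposite strand).
Hmgcs1, chr13:119690101-119690400, plus strand: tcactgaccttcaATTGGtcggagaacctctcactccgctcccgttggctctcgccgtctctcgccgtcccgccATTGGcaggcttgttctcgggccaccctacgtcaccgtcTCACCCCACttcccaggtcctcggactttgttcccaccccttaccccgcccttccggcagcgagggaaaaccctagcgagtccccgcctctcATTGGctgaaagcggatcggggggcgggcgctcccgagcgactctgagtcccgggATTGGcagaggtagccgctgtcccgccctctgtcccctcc
Cyp51, chr5:4104648-4104947, minus strand: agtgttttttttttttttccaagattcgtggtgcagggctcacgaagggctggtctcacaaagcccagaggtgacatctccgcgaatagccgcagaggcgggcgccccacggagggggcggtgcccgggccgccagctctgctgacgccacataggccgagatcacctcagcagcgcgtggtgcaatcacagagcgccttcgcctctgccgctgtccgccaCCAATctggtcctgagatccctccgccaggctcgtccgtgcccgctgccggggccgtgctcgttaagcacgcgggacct
Lss, chr10:76531355-76531654, plus strand: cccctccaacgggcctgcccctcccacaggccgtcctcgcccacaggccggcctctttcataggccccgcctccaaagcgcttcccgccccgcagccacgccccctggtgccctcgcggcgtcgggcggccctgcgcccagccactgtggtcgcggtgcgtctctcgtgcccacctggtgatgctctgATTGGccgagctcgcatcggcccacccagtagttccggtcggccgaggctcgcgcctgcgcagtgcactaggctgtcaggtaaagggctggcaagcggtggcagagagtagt
Hsd17b7, chr1:169969156-169969455, minus strand: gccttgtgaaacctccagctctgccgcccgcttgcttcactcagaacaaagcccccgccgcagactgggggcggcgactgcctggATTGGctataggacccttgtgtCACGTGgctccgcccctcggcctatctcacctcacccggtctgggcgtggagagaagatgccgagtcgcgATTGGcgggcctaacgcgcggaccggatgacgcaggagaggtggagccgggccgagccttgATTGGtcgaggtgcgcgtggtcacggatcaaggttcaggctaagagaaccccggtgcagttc

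In Hmgcs1 the SREBP site began 137 bases before the start, between CCAAT boxes that began 176 and 45 bases before it. Cyp51 and Lss, which fell, each held 1 CCAAT box, 29 and 62 bases before the start. Hsd17b7, which rose, held 3 CCAAT boxes and an E-box that began 143 bases before the start, so that a CCAAT box was found in the promoters of both the enzymes that fell and the enzyme that rose.

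None of the 6 regulators passed in either direction, and their median log2 fold change by group alone was -0.04. Srebf2, which encodes SREBP2, lay at 147, 209 and 149.5 CPM in siNC libraries 1, 2 and 3 and at 113, 168 and 133 CPM in siPKM2. It was lower in siPKM2 in each pair (paired log2 fold change -0.29, standard error 0.09, edgeR adjusted p = 0.0645). Insig1, an anchor of SCAP that is itself induced by SREBPs, lay at 42.2, 58.7 and 40.4 CPM in siNC and at 23.5, 43.1 and 36.1 CPM in siPKM2, also lower in each pair and most so in pair 1 (paired log2 fold change -0.48, standard error 0.14, edgeR adjusted p = 0.0639). In both genes siPKM2 2 lay above siNC 1, so the groups overlapped. Both passed narrowly in the paired fit without pair 2 (edgeR adjusted p = 0.0487 for Srebf2 and 0.0467 for Insig1). That fit called 39.1% of all genes. Neither gene passed without pair 1 or without pair 3. Srebf1 differed little, with paired log2 ratios of 0.03, 0.00 and 0.00, and its mean TPM was 59.7 in siPKM2 and 61.7 in siNC. Scap, Insig2 and Stard4, a sterol carrier, had paired log2 fold changes of -0.10, 0.29 and 0.04.

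Several enzymes of fatty acid supply, elongation and desaturation fell as well, whereas neither enzyme that makes malonyl-CoA and palmitate did. Of 8, 4 fell (Acly, Elovl6, Scd1 and Fads1) and 1 rose (Acaca), against 10.8% and 12.3% of all genes. The median log2 fold change by group alone was -0.49. All 4 that fell had every siPKM2 library below every siNC library. Together with Fdft1, Lss and Cyp51 this made 7 of the 32 genes with separate groups and a lower level, beside 12.3% of all genes tested, and 0 of the 32 with a higher level, beside 12.0%. Summed TPM of the 8 enzymes was 822, 909.6 and 759 in siNC and 666, 604 and 633 in siPKM2, so the siPKM2 libraries all lay below the siNC libraries. The largest part of this sum was Scd2, which did not pass and whose groups overlapped. Scd2 lay at 464, 473 and 396 TPM in siNC and at 402, 294 and 350 TPM in siPKM2. Library 2 was the highest of its group in both groups for 2 of the 8, beside 17 of the 18 sterol enzymes.

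Elovl6 (ENSMUSG00000041220; GRCm38 chromosome 3, 129532355 to 129638495, plus strand), the elongase that extends palmitate to stearate, had the largest change of the 32 genes. It lay at 41.1, 28.0 and 34.7 CPM in siNC libraries 1, 2 and 3 and at 14.4, 13.8 and 15.4 CPM in siPKM2 libraries 1, 2 and 3, or 34.6 ± 6.54 against 14.5 ± 0.845 CPM (mean ± SD, n = 3). The siPKM2 libraries lay close together and far below the lowest siNC library. The log2 fold change was -1.23 in the paired fit (standard error 0.13, edgeR adjusted p = 0.0112) and -1.25 by group alone (standard error 0.18, edgeR adjusted p = 0.0854), and DESeq2 by group alone gave an adjusted p of 4.86e-05. Without siNC 2 it also passed by group alone (log2 fold change -1.38, edgeR adjusted p = 0.0446). Its promoter is shown because, unlike those above, it held no match to any motif searched.
Elovl6, chr3:129532136-129532435, plus strand: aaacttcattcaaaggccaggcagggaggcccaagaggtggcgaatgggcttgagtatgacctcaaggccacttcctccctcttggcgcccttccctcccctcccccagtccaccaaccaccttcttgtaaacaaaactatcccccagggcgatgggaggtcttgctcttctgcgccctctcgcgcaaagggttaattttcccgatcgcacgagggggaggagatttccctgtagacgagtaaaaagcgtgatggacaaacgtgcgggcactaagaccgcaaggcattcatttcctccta

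Scd1, a stearoyl-CoA desaturase that makes oleate, lay at 155, 196 and 226 CPM in siNC and at 116, 118 and 141 CPM in siPKM2. The groups did not overlap (paired log2 fold change -0.61, standard error 0.10, edgeR adjusted p = 0.0175). Scd2, its close copy and by TPM the most abundant of the 32 genes at 444 ± 42.3 in siNC and 349 ± 54.2 in siPKM2 (mean ± SD, n = 3), had a paired log2 fold change of -0.31 (edgeR adjusted p = 0.141), and reads may be split between the desaturases. Acly, ATP citrate lyase, lay at 234, 275 and 230.1 CPM in siNC and at 164, 199.6 and 176 CPM in siPKM2, with log2 ratios of -0.52, -0.46 and -0.39 in the pairs (paired log2 fold change -0.45, standard error 0.08, edgeR adjusted p = 0.0212). No siPKM2 library reached the siNC range. Fads1, the delta-5 desaturase of polyunsaturated fatty acids, lay at 142, 166 and 111 CPM in siNC and at 84.7, 107 and 79.6 CPM in siPKM2, and its groups were separate by a small margin (paired log2 fold change -0.62, standard error 0.09, edgeR adjusted p = 0.0149). Fads2, the delta-6 desaturase, was lower in each pair with a paired log2 fold change of -0.48 (edgeR adjusted p = 0.0549).

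Acaca, the acetyl-CoA carboxylase that commits acetyl-CoA to fatty acids, lay at 117, 74.6 and 110.1 CPM in siNC and at 149.5, 89.9 and 138 CPM in siPKM2. It was higher in siPKM2 by a like amount in each pair, with log2 ratios of 0.35, 0.27 and 0.33, although siPKM2 2 lay below siNC 1 and 3 (paired log2 fold change 0.32, standard error 0.08, edgeR adjusted p = 0.0384). Fasn, fatty acid synthase, had a paired log2 fold change of 0.08 (edgeR adjusted p = 0.505) and was higher in pairs 1 and 3 and slightly lower in pair 2. Adipocyte markers also had a lower summed TPM in siPKM2 in each pair. Their largest drop was in pair 3, whereas that of the fatty acid enzymes was in pair 2. Of the 8 adipocyte markers, 5 were abundant enough to be tested. In the paired fit 4 of these fell, against 10.8% of all genes. Adipoq, 1 of the 4, lay at 1.96, 7.24 and 22.9 TPM in siNC and at 0.36, 1.35 and 7.76 TPM in siPKM2. Summed over the 8, TPM was 37.6, 140.0 and 228 in siNC and 32.1, 127 and 129.8 in siPKM2, and 3 of the 8 stayed below 1 TPM in every library. This sum was lowest in siNC 1 among the siNC libraries. Of the fatty acid enzymes that fell, Elovl6 was highest in siNC 1 within that group, Scd1 was lowest, and Acly and Fads1 lay between. Summed TPM of 5 osteoblast markers and of 7 fibroblast markers was lower in siPKM2 in pairs 1 and 3 and higher in pair 2. The part of the adipocyte and other markers in the differences was not tested.

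Across all 32 genes, 24 had a lower mean in siPKM2 by TPM and 24 by CPM. In every pair 19 were lower, beside 30.6% of all genes tested, and 3 were higher, beside 30.5%. The paired log2 fold changes ran from -1.23 for Elovl6 to 0.83 for Hsd17b7. By mean TPM in siNC the levels ran from 7.72 for Tm7sf2 to 444 for Scd2, and the 12 genes that fell lay between 10.2 for Elovl6 and 94.8 for Acly.

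**Figure D4:**
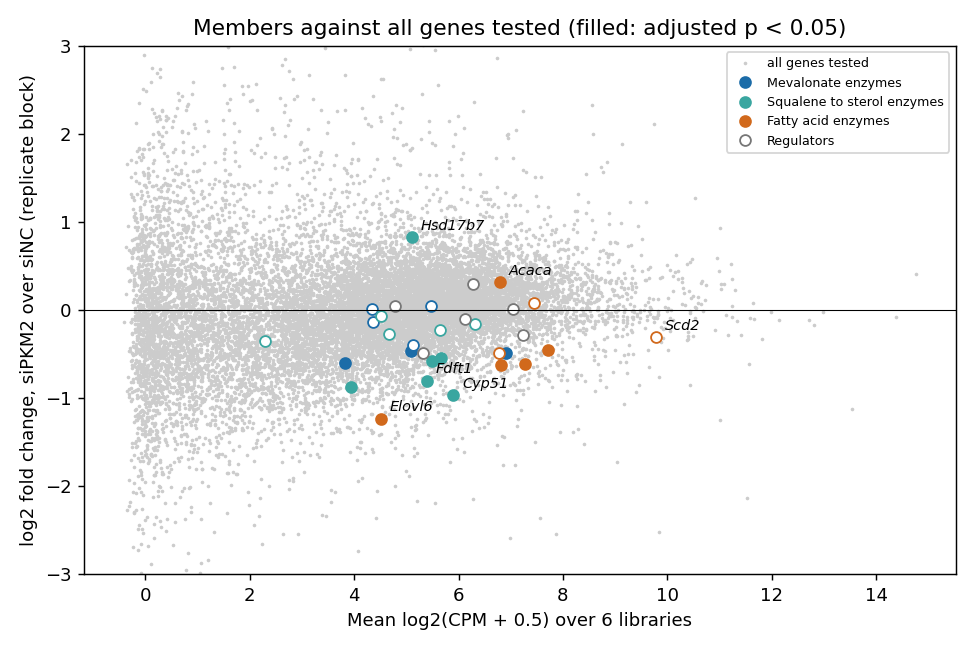
Log2 fold change of the paired fit against mean log2(CPM + 0.5) over the 6 libraries for all 15269 genes tested (grey) and the 32 genes (colours by role; filled symbols: adjusted p under 0.05). The 12 genes that fell lie between -1.23 and -0.45, well inside the spread of all genes, and 55 genes outside ±3 are not drawn.

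The siRNA sequences of the study allow a check for the seed of the knockdown reagent in these genes. The sources do not tie any of the 3 siRNAs to the sequenced libraries, although siPkm2 #3 was the one used further in the study. All 3 antisense strands are shown with bases 2 to 8, the seed, in capitals, followed by the match to siPkm2 #3 in Elovl6, in capitals.
siPkm2 #1 antisense: aUGGUACAaaugaugccagtt
siPkm2 #2 antisense: aCAUUCUUgauggucucugtt
siPkm2 #3 antisense: uGUUUCUCcagacagcaugtt
Elovl6-201 3′ UTR window: tcaactgtgagGAGAAACaacaactatca

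The site complementary to the seed of siPkm2 #3, GAGAAAC, occurred in the longest annotated 3′ UTR of 2 of the 32 genes, Elovl6 and Stard4, beside 17.9% of 13283 tested genes, and in 1 of the 12 genes that fell. The window shown lies at base 3114 of the 5008-base 3′ UTR of Elovl6. Stard4, the other gene with the site, had a log2 fold change of 0.04. The site of siPkm2 #1, TGTACCA, occurred in 7 of the 32, beside 11.7% of tested genes. These were Lss, Elovl6 and Fads1, 3 of the 12 that fell, together with Acaca, which rose, and Idi1, Tm7sf2 and Scd2. The site of siPkm2 #2, AAGAATG, occurred in 6 of the 32, beside 17.4%. These were Cyp51, 1 of the 12 that fell, Hsd17b7 and Acaca, the 2 that rose, and Idi1, Insig2 and Stard4. A match describes the letters of the region and is not evidence of binding.

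Of 23 listed genes from other steps of sterol handling, all tested, 5 rose and 1 fell in the paired fit, against 12.3% and 10.8% of all genes. By group alone 11 were higher and 12 lower in siPKM2 (median log2 fold change -0.06), and 0 passed in edgeR. At an unadjusted p under 0.05, 3 were higher and 1 lower, against 8.43% and 9.19% of all genes. The genes with the smallest p were Erlin2, an endoplasmic reticulum membrane protein (log2 fold change 1.21), Nus1, a subunit of the dolichol-making prenyltransferase (0.86), Vldlr, a lipoprotein receptor (0.59), Npc2, which moves cholesterol out of lysosomes (0.77), and Stard3, a late endosomal sterol carrier (0.55). The gene that fell, named after its value was seen, was Lbr, a sterol reductase of the nuclear membrane (-0.50). Of 11 tested genes of LXR signalling, efflux and oxysterols, 1 rose and 1 fell, against the same 12.3% and 10.8% of all genes. Ch25h, cholesterol 25-hydroxylase, rose (1.22) and Cyp46a1, cholesterol 24-hydroxylase, fell (-1.56).

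Of 31 tested genes from other steps of fatty acid and glycerolipid metabolism, 6 rose and 3 fell in the paired fit, against 12.3% and 10.8% of all genes. Acss2, which makes cytosolic acetyl-CoA from acetate and is a known SREBP target, lay at 13.3, 23.7 and 13.5 CPM in siNC and at 2.80, 10.5 and 4.57 CPM in siPKM2, with no overlap (paired log2 fold change -1.63, standard error 0.23, edgeR adjusted p = 0.0143). The acyl-CoA synthetases, which activate fatty acids, were split, with Acsl5 and Acsl4 higher (0.90 and 0.99) and Acsl3 lower (-0.66), and the elongase Elovl1 rose (0.46). Of 14 genes of fatty acid oxidation, Hadhb, the beta subunit of the mitochondrial trifunctional protein, rose (0.75) and none fell. By group alone edgeR called 0 genes of these lists. At an unadjusted p under 0.05, 2 of 11 LXR and efflux genes were higher and 2 lower. Of the 31 other fatty acid genes 4 were higher and 2 lower, and of the 14 oxidation genes 1 was higher. The shares of all genes at that threshold were 8.43% higher and 9.19% lower.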

How the data were processed

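RNA of 6 cultures of primary mouse chondrocytes (3 siNC, 3 siPKM2) was sequenced. The authors deposited, for each gene and library, estimated counts that were not normalized and TPM scaled within each library, together with their own comparison of the groups. Those columns of the authors hold a fold change as a ratio of the groups, its log2 value, and a p-value with its adjusted form, and none was used here. The submitters' processing notes name edgeR and the genome build mm9 without a role; the aligner, the counting and its use of strand are not given in the sources used here. Of 55416 rows, 1492 carried no gene name, and they stayed in because each has an Ensembl identifier. Counts were rounded, filtered by filterByExpr, scaled by TMM factors (0.962 to 1.08) and tested with edgeR 4.0.16 in R 4.3.3 (quasi-likelihood, Benjamini-Hochberg), by group alone as the methods state no block, and with that number as a block. The numbers pair the libraries: deviations of same-numbered libraries from their group means correlated at 0.716 to 0.794 across genes, and those of other numbers at -0.700 to 0.217. Levels are deposited TPM or TMM-scaled CPM. Within groups, 52.6% to 73.4% of genes differed beyond sampling noise, so no library was a duplicate.

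The list of genes, the wider lists and the marker lists were chosen with earlier results of these data known. Values in every library are given for genes that passed an adjusted p of 0.05 in either fit, for those whose groups did not overlap and for the 2 genes of each role with the largest change, and from each wider list at most 5 genes with the smallest paired p are named. Positions and transcripts came from GENCODE M21 on GRCm38, where 52135 identifiers and all 32 genes matched; promoters came from RefSeq GRCm38.p6. Alternatives were DESeq2 1.42.0, limma 3.58.1 on log2(TPM + 1) and log2(TPM + 0.1), other factors and filters, and each library or pair left out. The scripts were tested on simulated counts.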

Additional observations from a re-analysis of the deposited data

How the results depend on the processing

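The count of the 32 genes with an adjusted p under 0.05 was 0 by group alone and became 14 with the replicate block and 2 with DESeq2; leaving out each library in turn gave 0 to 1, the 1 being Elovl6 without siNC replicate 2. At the study's threshold, 0 became 1 with the replicate block and 1 with DESeq2, and 0 to 1 with each library left out. The other alternatives, which were RLE and upper-quartile factors, other filters and limma on TPM, called 0 at both thresholds. The paired count of 14 was 0 without the replicate block and 0 without pair 1 or pair 3, fits in which edgeR called 0 genes of the whole table and which have 4 libraries each; it was 18 without pair 2, where 39.1% of all genes were called, 16 by DESeq2, 15 without a filter and 14 with RLE factors. With the block, 6 of 23 other sterol genes, 2 of 11 LXR and efflux genes, 9 of 31 other fatty acid genes and 1 of 14 oxidation genes were called. The share of all genes called with the block was 23.1%. By group alone 0 genes of these lists were called, as were 0.00% of all genes.

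No log2 fold change of the 16 genes with values in every library changed sign in any alternative. With each library left out, the median log2 fold change ran from -0.56 to -0.19 for the sterol enzymes (-0.195 without siNC replicate 2), from -0.59 to -0.16 for the mevalonate enzymes (-0.155 without siNC replicate 2), from -0.54 to -0.25 for the enzymes from squalene onward (-0.245 without siPKM2 replicate 3), from -0.223 to -0.0208 for the regulators and from -0.56 to -0.35 for the fatty acid enzymes. Upper-quartile factors, which moved the median of all genes to -0.09, gave -0.40 for the enzymes from squalene onward and -0.11 for the regulators; limma on log2(TPM + 1) gave -0.30 and -0.0873, and on log2(TPM + 0.1) gave -0.0896 for the regulators. The cause of these shifts was not tested. Depth was not varied, and its part in the precision was not tested.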
